A study of Homo sapiens with 6 samples.

Results

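TGF-beta and BMP signaling genes were examined in oral squamous cell carcinoma (OSCC) cells after knockdown of the long noncoding RNA DLEU1. The members were 39 genes chosen by name, and every probe carrying one of these names in the scanner output was taken, which gave 57 of the 50599 probes of the array. All 39 genes had at least 1 probe. By role, there were 8 ligands, 8 receptors, 8 SMADs, 7 modulators that act outside the cell or as a decoy at its surface, 4 regulators inside the cell, and 4 target genes.

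HSC-3, KON, and Ca9-22 are established OSCC cell lines. Each line was transfected with a control siRNA (siCtrl) or with siDLEU1-2, an siRNA directed at DLEU1, with the same transfection reagent. Total RNA was taken after 72 h, and 100 ng per sample was hybridized to a one-color Agilent array, 1 array for each line and siRNA, 6 arrays in all. The 3 lines are thus the only replicates, a difference within a line has no error of its own, and with a single siRNA the loss of DLEU1 and other effects of that siRNA cannot be told apart.

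The level of a probe is given as log2 of its processed signal relative to the 75th percentile of its array, so that 0 lies at that percentile, and levels of different probes are not compared. On each array 43.0% to 45.7% of the probes were well above background, and 19956 probes passed the filter, which asked for this on at least 1 array of every line and defines the probes kept. DLEU1 itself was lower in every line, with log2 fold changes of -3.44 for Ca9-22, -3.63 for KON, and -4.10 for HSC-3 (mean -3.72 ± 0.34, SD, n = 3, limma adjusted p = 0.023). All 10 probes of 8 squamous epithelial markers were kept, 8 of them well above background on all 6 arrays, and of these 10 probes that of CDH1 rose and those of KRT6A, SFN, and TP63 fell. The fibroblast markers COL1A2, COL3A1, LUM, and PDGFRB were not well above background on any array, while 1 of the 2 DCN probes was so on 1 array, that of HSC-3 with siDLEU1-2 (at least 1.75-fold higher than with siCtrl). The fibroblast marker COL1A1, which epithelial tumor cells can also express and which TGF-beta is known to induce, was well above background on all 6 and rose by 1.45 ± 0.57 (SD, n = 3, limma adjusted p = 0.042). The summed signal of the 7 fibroblast probes was 0.768 to 0.921 times the 75th percentile under siCtrl and 1.75 to 2.96 times under siDLEU1-2. Of the 7 immune and 7 endothelial probes, 4 and 3 were not well above background on any array, and CD68 was the 1 called, lower with a mean log2 fold change of -1.39. In HSC-3, PTPRC was at least 1.74-fold and CDH5 4.23-fold higher, while PECAM1 was at least 2.42-fold, CD3E at least 1.51-fold, and VWF 1.31-fold lower. PTPRC and PECAM1 rest on 1 probe each, and their other probes were not well above background on any array. With another background correction (normexp), the log2 differences in HSC-3 were 0.43 for PTPRC and 1.10 for CDH5. They were -0.36 for PECAM1, -0.20 for CD3E, and -0.19 for VWF. Outside HSC-3, CDH5 was 1.97-fold higher in KON and at least 1.13-fold higher in Ca9-22, VWF was at least 1.83-fold and 3.01-fold higher in these lines at 1 probe, while another was well above background only in KON with siCtrl, and PTPRC was at least 2.06-fold higher in KON. The summed signal of the immune probes was 0.560 to 4.99 times the 75th percentile under siCtrl and 0.404 to 1.81 times under siDLEU1-2, and that of the endothelial probes was 0.312 to 0.945 and 0.485 to 1.78 times. The part of these markers in the results on the members was not tested, and in bulk samples fewer cells of a type and less RNA per cell cannot be told apart.

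TGF-beta ligands, activins, and bone morphogenetic proteins (BMPs) are secreted dimers that bring type II and type I receptor kinases together at the cell surface. The activated type I receptor phosphorylates SMAD2 and SMAD3 in the TGF-beta and activin branch, or SMAD1, SMAD5, and SMAD9 in the BMP branch, and these enter the nucleus with SMAD4 to regulate targets such as the ID genes. Secreted binding proteins, the decoy receptor BAMBI, and the inhibitory SMAD6 and SMAD7 restrain the pathway, and in squamous carcinoma TGF-beta is known both to arrest growth and to favor invasion.

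BMP4, BAMBI, and INHBB were the members with differences over 2-fold in all 3 lines, so the identity of their probes is shown first. The opening 30 of the 60 bases of each probe are given as the array design has them, in lower case, with positions on hg19.
BMP4 probe, chr14:54417348-54417377, minus strand, within the probe at chr14:54417318-54417377: ggacacgagactggtccaccacaatgtgac
BAMBI probe, chr10:28971551-28971580, plus strand, within the probe at chr10:28971551-28971610: aagactttgtacacactgtcaccagggtta
INHBB probe, chr2:121108780-121108809, plus strand, within the probe at chr2:121108780-121108839: gtgaactatgcaatttaaagggttgaccca
The files assign these probes to the transcripts NM_001202, NM_012342, and NM_002193, and each gene has this 1 probe. The heptamer GCACTTA, complementary to positions 2 to 8 of the antisense strand of siDLEU1-2, counted from its 5′ end, was found in 0 of the 57 member probes and in 138 of all 50599 probes (0.273%). The probes hold only 60 bases of a transcript, so nothing follows for the remainder.

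Of the 57 member probes, 40 were kept, from 30 genes, and 31 of the 40 were well above background on all 6 arrays. Using limma with the cell line as a block, 2 of the 40 were called higher after DLEU1 knockdown at an adjusted p below 0.05, BMP4 and BAMBI, which is 5% of the member probes kept beside 3.98% of all kept probes. Both passed the filter in at least 1 line only through the siDLEU1-2 array, where they are high, and neither is among the 31 probes, of which limma called 1 higher (ACVR1) and 1 lower (TGFBR2) when these alone entered the fit, so the share supports nothing about the members. In the fit on all kept probes, none of the 40 (0) was called lower by limma, beside 4.52% of all kept probes. At an unadjusted p below 0.05, 9 member probes (22.5%) were higher, beside 14.6% of all kept probes, and 2 (5%) were lower, beside 14.9%. Of the 9, the probes of BMP4, BAMBI, INHBB, and TGFBR3 likewise passed the filter in a line only through siDLEU1-2. At that threshold the fit on the 18094 probes gave 5 of the 31 higher and 1 lower. The median of the mean log2 fold changes of the 40 probes was 0.11, and that of all 19956 kept probes was 0.01. For 28 of the 40 probes the mean log2 fold change was within 0.5 of 0. Over all kept probes, a share of 0.155 lay below -0.50 and a share of 0.845 lay below 0.49.

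**Figure D1:**
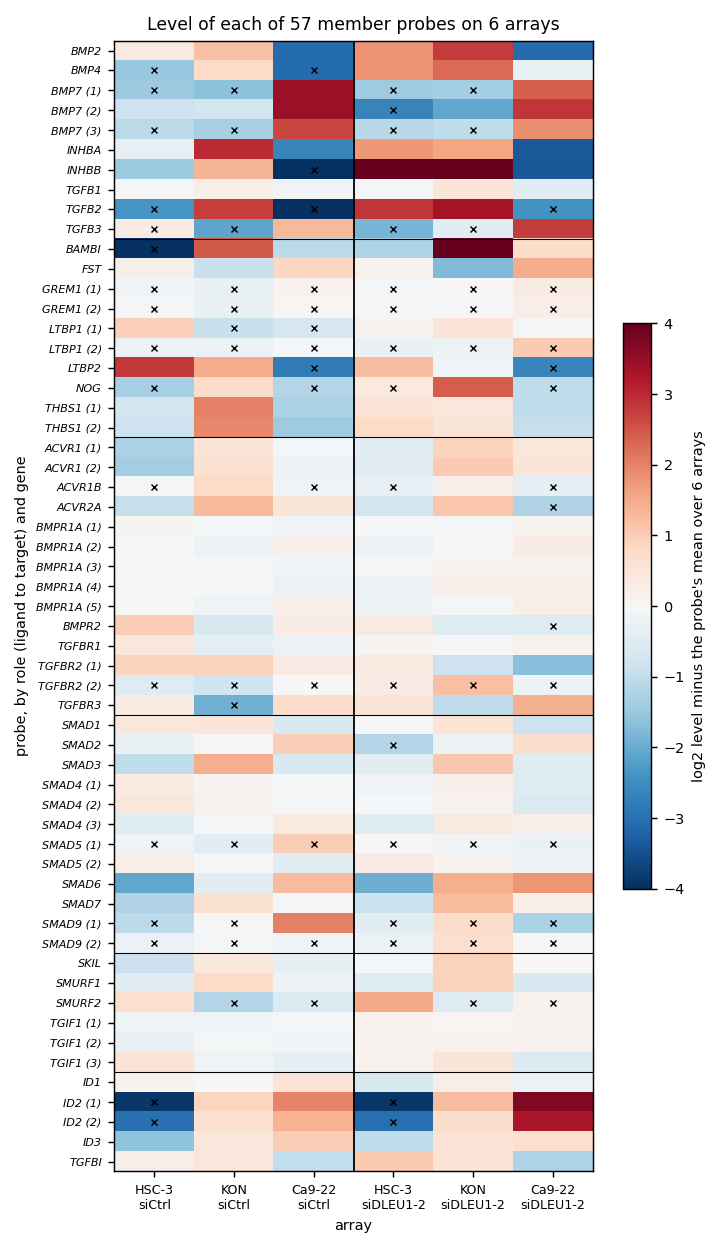
Log2 level of each of the 57 member probes (rows, by role from ligands at the top to targets at the bottom) on the 6 arrays (columns, siCtrl to the left of the line and siDLEU1-2 to the right), as the difference from the mean of that probe over the 6 arrays. Crosses mark values not well above background, and for 36 of the 40 probes kept the siCtrl arrays of the 3 lines lie further apart than the mean difference between siRNAs.

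Members over 2-fold in every line were found among the ligands and the modulators. BMP4, a ligand of the BMP branch, BAMBI, a pseudoreceptor that lacks the kinase domain and dampens BMP and TGF-beta signals, and INHBB, which encodes the activin and inhibin beta B chain, were more than 2-fold higher in all 3 lines by their measured values. These were 3 of 40 probes (7.5%), beside 2.08% of all kept probes, and 0 of 40 were over 2-fold lower in all 3 lines, also beside 2.08%. Each of the 3 passed the filter in at least 1 line only through siDLEU1-2, and among the 31 probes well above background on all 6 arrays 0 were over 2-fold in all 3 lines. With values below the detection floor set to it, 2 of these 3 stayed over 2-fold in every line, INHBB and BAMBI, and with normexp background correction 1 did, BAMBI.

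For BMP4 the level was -3.76 under siCtrl and -0.45 under siDLEU1-2 in HSC-3, while KON gave -1.46 and 0.02 and Ca9-22 gave -5.32 and -2.54. The siDLEU1-2 array was the higher one in each line, and the siCtrl arrays of HSC-3 and Ca9-22 were not well above background, so that this probe was kept there only through siDLEU1-2. The increase was therefore at least 8.75-fold in HSC-3 and at least 1.87-fold in Ca9-22, and it was 2.79-fold in KON. Over the lines the measured log2 fold change was 2.52 ± 0.94 (SD, n = 3, limma adjusted p = 0.033). With values below the detection floor set to it, the mean was 1.84 and no longer called (limma adjusted p = 0.067), and with normexp background correction it was 0.98 and called (limma adjusted p = 0.031), with 1.37 in HSC-3, and KON and Ca9-22 gave 0.94 and 0.63. A bound printed here as at least so many fold refers to the processed signal. With normexp the differences of such member and marker probes were smaller than the bound. Leaving out HSC-3, KON, or Ca9-22 gave 2.13, 3.05, or 2.39, with limma adjusted p-values of 0.090 to 0.103.

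For BAMBI the level was -4.16 under siCtrl and -0.08 under siDLEU1-2 in HSC-3, while KON gave 3.59 and 5.64 and Ca9-22 gave 0.06 and 1.88. All but the siCtrl array of HSC-3 were well above background, so that in HSC-3 the probe was kept only through siDLEU1-2 and the mean and its p rest on a dim value there. HSC-3 thus showed an increase of at least 11.3-fold, KON of 4.12-fold, and Ca9-22 of 3.53-fold, and the siRNA difference within a line was smaller than the distance between HSC-3 and KON under siCtrl. The mean log2 fold change was 2.65 ± 1.24 (SD, n = 3, limma adjusted p = 0.047). It was 1.79 with normexp correction, with 1.82 in HSC-3 (limma adjusted p = 0.011), and the call was lost when arrays were centered on the median (2.57, limma adjusted p = 0.0504). The call was also lost without HSC-3 (1.93), KON (2.95), or Ca9-22 (3.06), with limma adjusted p-values of 0.074 to 0.131.

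For INHBB the level was -0.34 under siCtrl and 5.14 under siDLEU1-2 in HSC-3, while KON gave 2.5 and 5.16 and Ca9-22 gave -3.36 and -2.24. The siDLEU1-2 arrays of HSC-3 and KON thus reached a like level from different starting points, while in Ca9-22 the siCtrl array was not well above background. HSC-3 thus showed an increase of 44.8-fold, KON of 6.30-fold, and Ca9-22 of at least 2.18-fold, and with normexp correction the log2 difference in Ca9-22 was 0.45. The size varied widely between the lines, and the mean of 3.09 ± 2.21 (SD, n = 3) was not called (limma adjusted p = 0.093). It was 1.89 without HSC-3, 3.31 without KON, and 4.07 without Ca9-22, with limma adjusted p-values of 0.074 to 0.226.

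**Figure D2:**
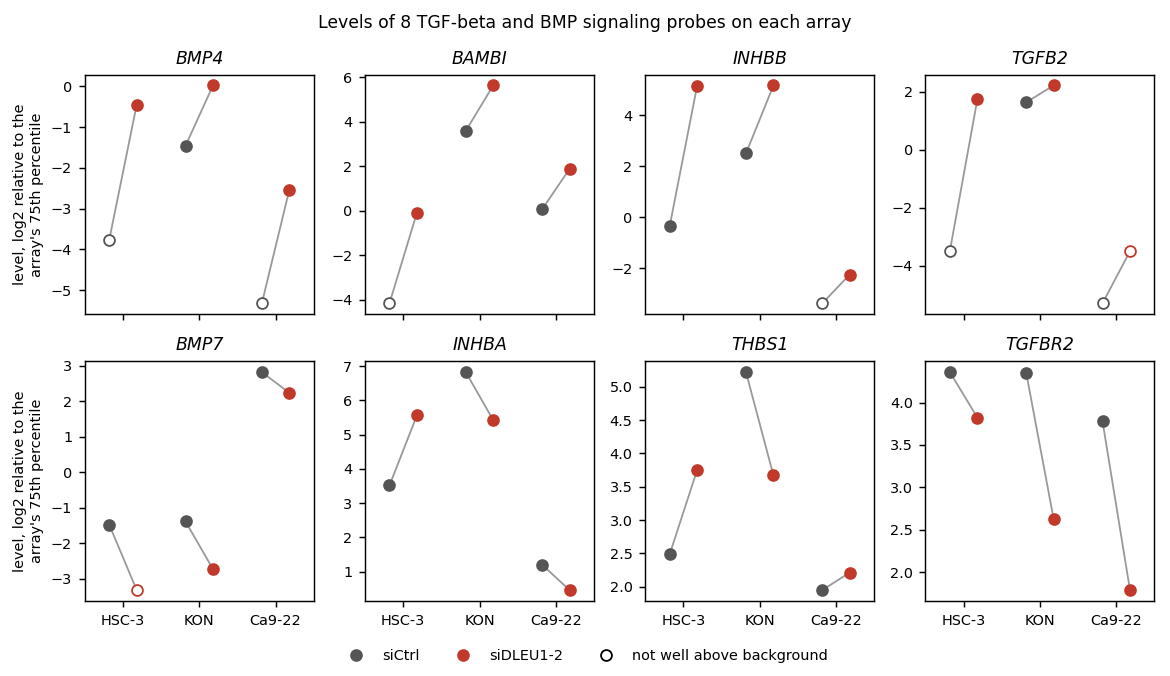
Level of 8 member probes on each array (vertical axis, log2 relative to the 75th percentile of the array, with a scale of its own in each panel) in the 3 lines (horizontal axis). Gray points are siCtrl, red points are siDLEU1-2, lines join the arrays of a line, and open points were not well above background, and BMP4, BAMBI, and INHBB are higher under siDLEU1-2 in each line while INHBA and THBS1 go up in HSC-3 and down in KON.

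Among the other ligands, the direction depended on the gene and on the line. The genes in this and the next paragraphs that lack a call were chosen for display after their values were seen. For TGFB2, which encodes TGF-beta 2, the level was -3.48 under siCtrl and 1.75 under siDLEU1-2 in HSC-3 and 1.64 and 2.22 in KON, and neither array of Ca9-22 was well above background. This is an increase of at least 37.5-fold in HSC-3, where the log2 difference was 3.25 with normexp, and 1.5-fold in KON. The probe was not among those kept and has no call.

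BMP2, a BMP ligand close in sequence to BMP4, was higher by 3.08-fold in KON, by 2.66-fold in HSC-3, and by 1.02-fold in Ca9-22 (mean log2 fold change 1.02 ± 0.87, SD, n = 3, limma adjusted p = 0.142). BMP7, a further BMP ligand, was the 1 ligand kept that was lower in every line. Its level at the probe kept was -1.47 under siCtrl and -3.31 under siDLEU1-2 in HSC-3, while KON gave -1.38 and -2.73 and Ca9-22 gave 2.81 and 2.23. The siDLEU1-2 array of HSC-3 was not well above background, so BMP7 was at least 3.58-fold lower there, while KON had a 2.54-fold and Ca9-22 a 1.5-fold decrease. The mean of -1.25 ± 0.63 (SD, n = 3) was not called (limma adjusted p = 0.061), but it was with normexp correction (-0.60, with -0.63 in HSC-3, limma adjusted p = 0.031). The other 2 BMP7 probes were well above background only in Ca9-22, where they were 2.09-fold and 1.73-fold lower.

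INHBA, which encodes the beta A chain of activin A, had opposite directions in the lines. Its level was 3.52 under siCtrl and 5.56 under siDLEU1-2 in HSC-3, while KON gave 6.82 and 5.42 and Ca9-22 gave 1.20 and 0.46. Under siDLEU1-2 it was higher by 4.14-fold in HSC-3 but lower by 2.64-fold in KON and by 1.67-fold in Ca9-22, so the siDLEU1-2 arrays of HSC-3 and KON lay closer together than the siCtrl arrays. TGFB1, which encodes TGF-beta 1, had log2 fold changes of -0.02, 0.25, and -0.29 in HSC-3, KON, and Ca9-22. TGFB3, which encodes TGF-beta 3, was well above background only in Ca9-22, with a level of -2.40 under siCtrl and -0.90 under siDLEU1-2.

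Of the modulators that act outside the cell, THBS1 had 2 probes kept that gave the same picture in each line. THBS1 encodes thrombospondin 1, a matrix protein that can release TGF-beta from its latent form. At the first probe (chr15:39888831-39888890) the level was 2.49 under siCtrl and 3.75 under siDLEU1-2 in HSC-3, while KON gave 5.22 and 3.67 and Ca9-22 gave 1.95 and 2.21. At the second probe (chr15:39874546-39874605) it was -1.53 and 0.08 in HSC-3, while KON gave 1.21 and -0.21 and Ca9-22 gave -2.13 and -1.63. THBS1 was thus higher in HSC-3 by 2.40-fold and 3.06-fold and lower in KON by 2.93-fold and 2.67-fold at the 2 probes. With lines opposed, the means were -0.01 and 0.23, with limma adjusted p-values of 0.995 and 0.834.

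LTBP2, a latent TGF-beta binding protein of the matrix, was lower in both lines that showed it, with a level of 0.05 under siCtrl and -1.55 under siDLEU1-2 in HSC-3 and of -1.29 and -2.95 in KON. In Ca9-22 neither array was well above background. LTBP1, which tethers latent TGF-beta to the matrix, was lower in HSC-3 (-0.78 on the log2 scale) and was at least 2.61-fold higher in KON and at least 1.42-fold higher in Ca9-22, or by 0.52 and 0.22 on the log2 scale with normexp. FST encodes follistatin, which binds activins, and had log2 fold changes of -0.10, -0.88, and 0.66 in HSC-3, KON, and Ca9-22. NOG, which encodes the BMP antagonist noggin, was well above background only in KON (-3.52 under siCtrl and -1.82 under siDLEU1-2), and GREM1, the BMP antagonist gremlin 1, on no array.

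The receptors had 12 probes kept from 7 genes, with a median mean log2 fold change of 0.07. None was called (0 by limma), beside 3.98% of all kept probes called higher and 4.52% lower. TGFBR2, the type II receptor of TGF-beta, was the receptor with the lowest mean. Its level was 4.36 under siCtrl and 3.82 under siDLEU1-2 in HSC-3, while KON gave 4.35 and 2.62 and Ca9-22 gave 3.78 and 1.79, all well above background. The siDLEU1-2 arrays of KON and Ca9-22 lay below all 3 siCtrl arrays, and that of HSC-3 lay just above the siCtrl array of Ca9-22. TGFBR2 was lower by 3.97-fold in Ca9-22, by 3.31-fold in KON, and by 1.45-fold in HSC-3, and the mean of -1.42 ± 0.78 (SD, n = 3) was not called (limma adjusted p = 0.065). It was called with normexp correction (-1.40, limma adjusted p = 0.044) and when only probes well above background on all 6 arrays were tested (limma adjusted p = 0.047).

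ACVR1, a type I receptor for BMPs and activins, was higher in every line at both of its probes, with log2 fold changes of 0.81, 0.40, and 0.52 at the first and 0.89, 0.46, and 0.69 at the second in HSC-3, KON, and Ca9-22. The means were 0.58 ± 0.21 and 0.68 ± 0.21 (SD, n = 3), with limma adjusted p-values of 0.086 and 0.065. With normexp correction the second probe was called (limma adjusted p = 0.048) and the first was not (limma adjusted p = 0.052). TGFBR3 encodes betaglycan, the coreceptor that presents TGF-beta 2, and had log2 fold changes of 0.22 in HSC-3 and 0.71 in Ca9-22, and in KON, where the siCtrl array was not well above background, it was at least 1.79-fold higher, or by 0.19 on the log2 scale with normexp. ACVR2A, an activin type II receptor, had 0.18 and -0.18 in HSC-3 and KON, and in Ca9-22 it was at least 3.25-fold lower, or by -0.83 on the log2 scale with normexp.

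BMPR1A, a type I BMP receptor, had 5 probes kept whose means ran from -0.02 to 0.14, with 4 above 0 and 1 below. In HSC-3 the log2 fold changes of all 5 were -0.30 to -0.01, and in KON and Ca9-22 they were 0.02 to 0.39. The pair of probes with the same coordinates (chr10:88684862-88684921) had means on either side of 0. One had levels of 1.84 under siCtrl and 1.64 under siDLEU1-2 in HSC-3, while KON gave 1.65 and 1.81 and Ca9-22 gave 2.08 and 2.15, and a mean log2 fold change of 0.01. The other had 1.76 and 1.56 in HSC-3, while KON gave 1.59 and 1.71 and Ca9-22 gave 1.97 and 1.99, and a mean of -0.02. These signs turned for single probes when arrays were centered in another way. BMPR2, the type II BMP receptor, and TGFBR1, the type I receptor of TGF-beta, had means of -0.43 and 0.13, the first resting on a dim siDLEU1-2 array in Ca9-22 and being -0.15 with normexp. ACVR1B, an activin type I receptor, was well above background only in KON, with a log2 fold change of -0.54.

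For the SMADs, the signal carriers of the pathway, the size of the mean log2 fold change, whatever its sign, had a median of 0.28, beside 0.29 over all kept probes. Of their 9 probes kept, 8 had a mean within 0.5 of 0 on the log2 scale, and the median was 0.09. None was called (0 by limma), beside 3.98% of all kept probes called higher and 4.52% lower. SMAD6, which inhibits the BMP branch, was the exception, with a log2 fold change of 1.92 in KON beside 0.49 in Ca9-22 and 0.11 in HSC-3 (mean 0.84 ± 0.95, SD, n = 3, limma adjusted p = 0.229). SMAD7, which inhibits both branches, had 0.34, 0.67, and 0.34 (mean 0.45 ± 0.19, SD, n = 3, limma adjusted p = 0.132).

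Among SMAD2 and SMAD3, which carry TGF-beta and activin signals, the means were -0.44 and 0.12, that of SMAD2 resting on a dim siDLEU1-2 array in HSC-3 and being -0.09 with normexp, and among SMAD1 and SMAD5, which carry BMP signals, they were -0.21 and 0.17. SMAD9 was well above background on 1 array, that of Ca9-22 with siCtrl. SMAD4, the common partner, had 3 probes kept with means of -0.28, -0.34, and 0.09 that differed in sign, and limma adjusted p-values of 0.363, 0.257, and 0.768. At the first, the level was 1.89 under siCtrl and 1.41 under siDLEU1-2 in HSC-3, while KON gave 1.67 and 1.76 and Ca9-22 gave 1.5 and 1.07. At the second, it was 2.79 and 2.26 in HSC-3, while KON gave 2.49 and 2.47 and Ca9-22 gave 2.27 and 1.78. At the third, it was -1.0 and -1.02 in HSC-3, while KON gave -0.57 and -0.17 and Ca9-22 gave -0.12 and -0.24. The first and second probes adjoin each other (chr18:48611330-48611389 and chr18:48611270-48611329), whereas the third lies upstream in the transcript (chr18:48605060-48605119).

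**Figure D3:**
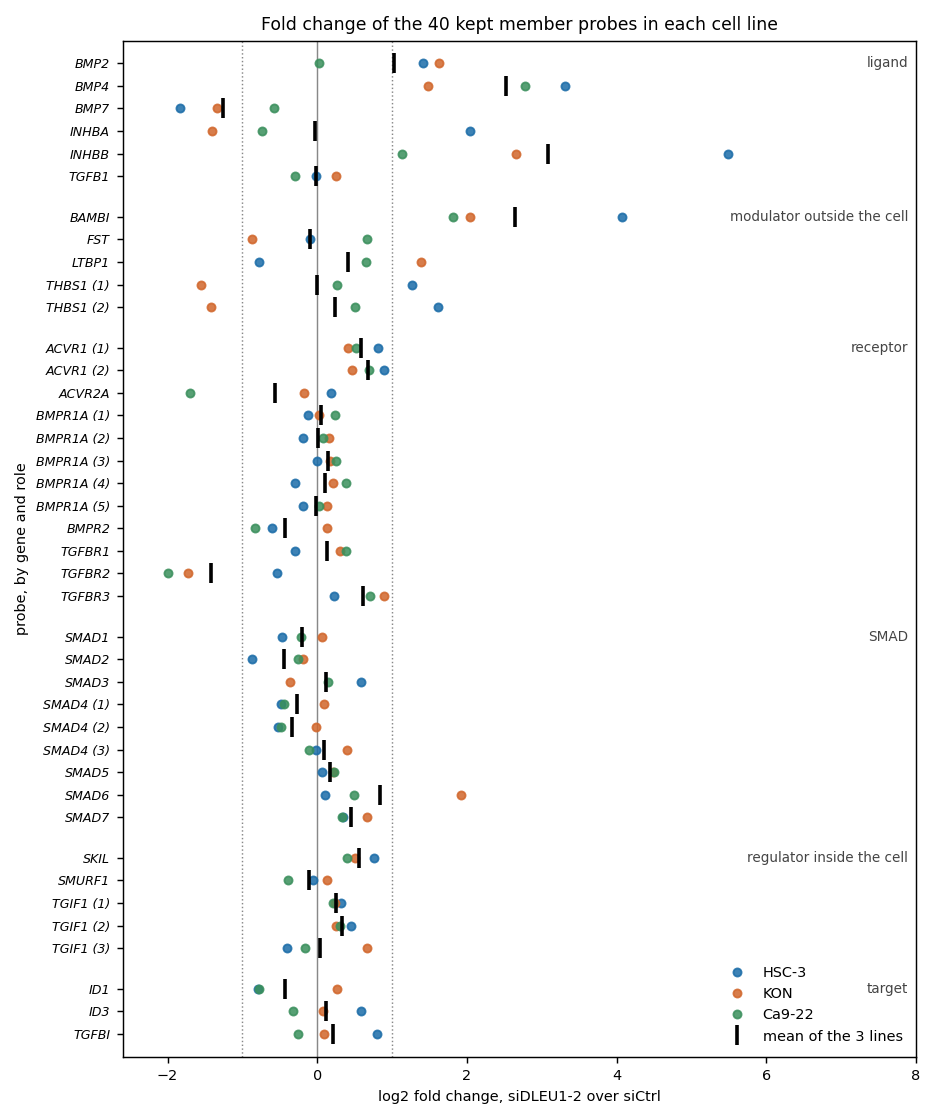
Log2 fold change of siDLEU1-2 over siCtrl (horizontal axis) for the 40 kept member probes (vertical axis, by role), with a colored point for each line and a bar for the mean of the 3 lines. Dotted lines mark 2-fold, values include arrays not well above background, and all values beyond 2 on this scale, dim arrays included, belong to ligands and to BAMBI.

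Of the regulators inside the cell, SKIL, a corepressor of SMADs that TGF-beta signals also induce, had log2 fold changes of 0.76, 0.51, and 0.40 in HSC-3, KON, and Ca9-22 (mean 0.56 ± 0.18, SD, n = 3, limma adjusted p = 0.088). TGIF1, a further corepressor, had means of 0.26, 0.33, and 0.03 at its 3 probes. SMURF1, a ubiquitin ligase for SMADs and receptors, had a mean of -0.11, and the related SMURF2 was well above background only in HSC-3, with a log2 fold change of 0.87.

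The 3 target genes kept did not have 1 direction over the lines. ID1, an inhibitor of basic helix-loop-helix factors and a direct target of BMP signals, had log2 fold changes of -0.79, 0.26, and -0.78 in HSC-3, KON, and Ca9-22. ID3, of the same family, had 0.58, 0.08, and -0.32. TGFBI, a matrix protein named for its induction by TGF-beta, had 0.81, 0.09, and -0.25.

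ID2, the further ID gene, was not well above background in HSC-3. At its first probe the level was -0.81 under siCtrl and -0.46 under siDLEU1-2 in KON and 0.31 and 2.02 in Ca9-22, and at the second it was -1.98 and -1.92 in KON and -1.22 and 0.65 in Ca9-22. ID2 was thus 3.27-fold and 3.67-fold higher in Ca9-22 and 1.27-fold and 1.05-fold higher in KON. In Ca9-22, then, ID1 was lower and ID2 higher.

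Counted by line, 7 of the 40 member probes were over 2-fold higher in HSC-3, beside 7.53% of all kept probes, and 1 was over 2-fold lower, beside 6.68%. All 8 belonged to ligands or modulators outside the cell, namely BMP2, BMP4, INHBA, INHBB, BAMBI, THBS1 with both probes, and, lower, BMP7. In HSC-3, BMP4 and BAMBI were kept only through the siDLEU1-2 array and BMP7 only through the siCtrl array, in each case the higher one. In KON, 6 were over 2-fold higher, beside 7.3% of all kept probes, and 5 were lower, beside 7.29%. The 6 were BMP2, BMP4, INHBB, BAMBI, LTBP1, and SMAD6, and the 5 were BMP7, INHBA, both THBS1 probes, and TGFBR2, with LTBP1 kept there only through siDLEU1-2. In Ca9-22, 3 were over 2-fold higher, beside 6.56% of all kept probes, and 2 were lower, beside 6.46%. Here the 3 were BMP4, INHBB, and BAMBI, and the 2 were ACVR2A and TGFBR2. In Ca9-22, BMP4 and INHBB were kept only through siDLEU1-2, with a bound for BMP4 of 1.87-fold, below 2-fold, and ACVR2A only through siCtrl, so these counts by line support nothing about the members. The same direction in all 3 lines was seen for 17 of 40 member probes (42.5%), 13 higher and 4 lower, beside 53.6% of all kept probes.

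**Figure D4:**
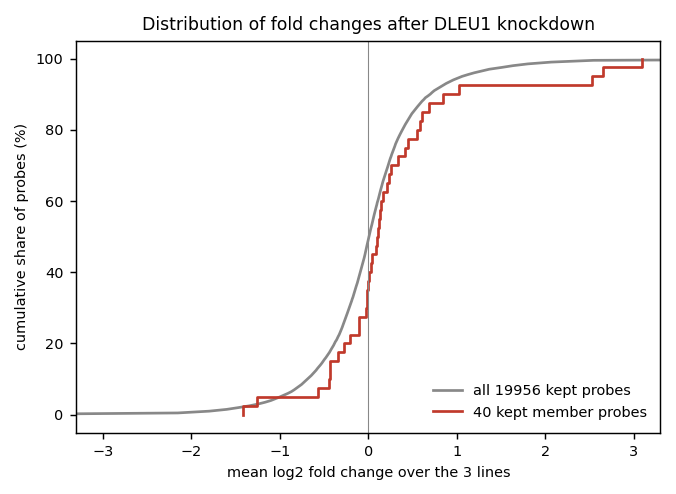
Cumulative share of probes (vertical axis, %) by mean log2 fold change over the 3 lines (horizontal axis) for the 40 kept member probes (red) and all 19956 kept probes (gray). The member curve lies close to the other over most of its length and has 3 probes, BMP4, BAMBI, and INHBB, far to the right.

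The members also differed between the lines before knockdown. Under siCtrl, the distance between the highest and the lowest line had a median of 1.36 on the log2 scale over the 40 probes, beside 0.96 over all kept probes. For 36 of the 40 it was larger than the mean log2 fold change after knockdown, whatever its sign. These distances include arrays that were not well above background. BAMBI had the order KON, Ca9-22, HSC-3 under siCtrl and INHBB the order KON, HSC-3, Ca9-22, the last line of each being not well above background. BMP4 was well above background in KON alone, and BMP7 was highest in Ca9-22. With 1 siCtrl array per line, no spread within a line can be given for these orders.

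From a wider list of the pathway, chosen by name, 76 further genes had 94 probes on the array, and 44 of these were kept. Of the 44, limma called 2 higher and 2 lower, beside the same 3.98% and 4.52% of all kept probes. ITGB8, the integrin beta 8 chain that with the alpha V chain binds and activates latent TGF-beta, rose. Its level was -1.68 under siCtrl and -0.94 under siDLEU1-2 in HSC-3, while KON gave -2.83 and -1.46 and Ca9-22 gave -0.39 and 1.17 (mean log2 fold change 1.22 ± 0.42, SD, n = 3, limma adjusted p = 0.040). ITGAV, the alpha V chain itself, was the other gene called higher, by 0.89 ± 0.16 (SD, n = 3, limma adjusted p = 0.038). Its levels of 3.26, 3.35, and 3.64 under siCtrl and 4.14, 4.40, and 4.37 under siDLEU1-2, in HSC-3, KON, and Ca9-22, did not overlap.

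HEY1, a transcriptional repressor that acts downstream of Notch and that TGF-beta and BMP signals also induce, was called lower. Its mean change was -1.01 ± 0.38 on the log2 scale (SD, n = 3, limma adjusted p = 0.049). Its level was -2.67 under siCtrl and -4.11 under siDLEU1-2 in HSC-3, while KON gave 1.27 and 0.40 and Ca9-22 gave 0.45 and -0.26, and in HSC-3 the siDLEU1-2 array was not well above background, a decrease of at least 1.89-fold, or of -0.19 on the log2 scale with normexp. The corepressor TGIF2 was the other gene called lower (-0.86 ± 0.20, SD, n = 3, limma adjusted p = 0.044). With normexp correction ITGAV stayed called, whereas ITGB8 (0.83, limma adjusted p = 0.053), HEY1 (-0.49, limma adjusted p = 0.090), and TGIF2 (-0.46, limma adjusted p = 0.057) did not, and none of the 4 was called with any of the lines left out. ITGAV and TGIF2 are named here after their values were seen. FSTL3, a follistatin-like protein that binds activins, held the 1 probe of the 44 (2.27%) that was over 2-fold in all 3 lines. It was higher, and 2.08% of all kept probes were over 2-fold higher in all 3 lines. Its level was -0.17 under siCtrl and 4.27 under siDLEU1-2 in HSC-3, while KON gave 1.53 and 2.94 and Ca9-22 gave 1.11 and 2.63, and the mean of 2.46 ± 1.71 (SD, n = 3) was not called (limma adjusted p = 0.089). Like INHBB, it differed most in HSC-3.

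The promoters of BMP4, BAMBI, and INHBB are shown because these 3 members were higher together in every line. The sequences are the 250 bases before a transcription start in RefSeq (GRCh38.p14), in lower case, with capitals for GGCGCC, the GC-rich element that SMADs of the BMP branch are known to bind.
BMP4, first of 3 starts, chr14:53955051-53955300, minus strand: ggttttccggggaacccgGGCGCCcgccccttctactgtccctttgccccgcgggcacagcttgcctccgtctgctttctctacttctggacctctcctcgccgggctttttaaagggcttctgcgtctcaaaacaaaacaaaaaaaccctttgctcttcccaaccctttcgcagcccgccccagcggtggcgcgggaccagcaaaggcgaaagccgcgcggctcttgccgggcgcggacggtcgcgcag
BAMBI, chr10:28677271-28677520, plus strand: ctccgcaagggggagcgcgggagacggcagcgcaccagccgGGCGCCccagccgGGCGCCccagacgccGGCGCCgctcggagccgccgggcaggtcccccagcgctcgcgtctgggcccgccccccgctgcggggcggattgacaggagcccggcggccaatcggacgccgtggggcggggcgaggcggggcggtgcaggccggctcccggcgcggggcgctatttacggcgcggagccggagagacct
INHBB, chr2:120345886-120346135, plus strand: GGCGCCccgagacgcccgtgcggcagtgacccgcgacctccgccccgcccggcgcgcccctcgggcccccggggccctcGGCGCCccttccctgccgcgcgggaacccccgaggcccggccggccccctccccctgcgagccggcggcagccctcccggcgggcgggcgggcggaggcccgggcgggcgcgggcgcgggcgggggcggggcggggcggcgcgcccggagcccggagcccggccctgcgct
The start of BMP4 that lies furthest upstream was taken. GGCGCC, which reads the same on both strands, occurs 1 time before this BMP4 start, 3 times before BAMBI, and 2 times before INHBB. The windows before the other 2 BMP4 starts hold it 0 times. It is in 5752 of 35116 such windows of all genes (16.4%) and in 17 of 70 windows of the 36 members matched by symbol (24.3%). The GC content of the printed windows was 63.6%, 81.2%, and 89.6%. CAGAC, the SMAD box, searched also as GTCTG for the other strand, occurs 1 time before this BMP4 start, 2 times before BAMBI, and 0 times before INHBB, 0 and 1 time before the other BMP4 starts, and is in 38.0% of all windows and in 42.9% of those of the members. The last base of GGCGCC can be the first of CAGAC. These matches describe letters in a window and do not show that a factor binds there.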

How the data were processed

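Gene expression was measured in HSC-3, KON, and Ca9-22 cells, with 1 one-color array per line and siRNA. The authors deposited the output of Agilent Feature Extraction 10.7.3.1, which gives each spot an intensity, background-subtracted by the software, on a linear scale and not normalized between arrays. A series table of the same values, rounded, was deposited too. Control and outlier spots were left out, log2 was taken, spots of a probe were averaged, and the 75th percentile of each array was subtracted. A probe was kept if it was well above background (at least 50% of its spots) on at least 1 array of each line, which left 19956 probes. The number of arrays limits the precision. All arrays were on 1 slide.

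Each fold change sets siDLEU1-2 against siCtrl in a line. limma 3.58.1 (R 4.3.3) was fitted to all kept probes with siRNA and cell line as terms, and p-values were adjusted by Benjamini-Hochberg over all of them. Lines were paired because both arrays come from 1 line (within-pair correlation 0.83, 0.81, and 0.82). The fit was tested on simulated data. Where 1 array was dim, the bound is against the higher of its value and the lowest signal well above background on that array. Values in each array were to be given for members called or over 2-fold in all lines and for genes whose probes disagreed. Wider-list genes were named if over 2-fold in all lines, or called with a mean of at least 1 on the log2 scale. Other genes shown were chosen after their values were seen. The members and lists were chosen with earlier results of these data known. Alternatives were other normalizations, background correction, the series table, filters on dim probes, each line left out, a fit without the block, a 3-fold threshold, gene means, and the methods' t-test. GeneSpring GX, which the authors name for their analysis, was not used here.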

Additional observations from a re-analysis of the deposited data

Results flagged for a closer look

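INHBA and THBS1 were over 2-fold higher in HSC-3 and over 2-fold lower in KON, each with 1 array per line and siRNA, so the difference between the lines was not tested. The log2 fold changes of INHBA in HSC-3 and KON were 3.45 apart. At the THBS1 probes they were 2.81 and 3.03 apart. All arrays involved were well above background, and with normexp correction the opposite directions stayed (INHBA 2.04 and -1.40, THBS1 1.20 and -1.54 at the first probe and 0.99 and -1.17 at the second).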

How the results depend on the processing

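Of the 40 member probes kept, 2 were called higher and 0 lower, 3 were over 2-fold in all lines, and the median log2 fold change was 0.11. The calls depended on the settings. With normexp 3 were called higher (BMP4, BAMBI, and 1 of the 2 ACVR1 probes), beside 1131 of all 19956 kept probes. Probes called higher numbered 1 with centering on the median (BMP4) and 1 with dim values set to the floor (BAMBI), beside 639 and 934 of all kept probes. The 31 probes well above background on all arrays exclude BMP4 and BAMBI by construction. Among them 1 ACVR1 probe was called higher, beside 991 of all 18094 such probes. The number called higher was 0 without a filter (57 probes), 0 without the replicate block (0 at an unadjusted p below 0.05), and 0 by the methods' t-test after adjustment (2 before). It was also 0 without each line in turn (0 to 0). Over all probes, limma called 127 higher and 117 lower without Ca9-22 and 0 without HSC-3 or KON. For all probes, limma likewise called 0 without the filter and 0 without the block. Probes called lower numbered 2 with normexp correction (TGFBR2 and BMP7), beside 1177 of all kept probes. Among the 31 probes 1 was called lower (TGFBR2), beside 1074 of the 18094. Without each line in turn, 0 were called lower (0 to 0). Probes over 2-fold in all lines numbered 1 with normexp (BAMBI), 0 on the 31 probes, 1 at 3-fold, and 3 to 8 with a line left out, where the 8 came without Ca9-22 and, as this count takes no account of direction, include INHBA and both THBS1 probes, which were opposed in HSC-3 and KON. The median stayed between 0.03 and 0.13 in every alternative, while that of all probes ran from -0.06 to 0.14. The 0.14 came without the filter, where the members had 0.13. Quantile normalization, the percentile of detected probes, the series table, and gene means left 2 called higher and 0 lower.

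Single means changed sign only where they were near 0 or the lines opposed. INHBA was 0.0073 with normexp. Centering on the median gave -0.028 and -0.060 for BMPR1A probes and -0.038 for TGIF1, and the second BMPR1A probe was -0.0013 with quantile normalization and -0.014 with the percentile of detected probes. With a line left out, the mean log2 fold change ranged from -1.07 to 0.65 for INHBA, -0.64 to 0.76 and -0.46 to 1.06 for THBS1, -0.069 to 1.02 for LTBP1, -0.49 to 0.28 for FST, -0.16 to 0.12 for TGFB1, -0.11 to 0.36 for SMAD3, -0.069 to 0.19 for SMAD4, -0.23 to 0.036 for SMURF1, -0.28 to 0.25 for TGIF1, -0.12 to 0.33 for ID3, and -0.079 to 0.45 for TGFBI. For 4 BMPR1A probes it was -0.049 to 0.13, -0.063 to 0.12, -0.046 to 0.30, and -0.086 to 0.073. Where no value shows it, the cause was not tested.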
